A study of Bos taurus with 10 samples.

Results

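*FOLR3*, a member of the folate receptor family, was examined together with 7 other genes of folate uptake and one-carbon metabolism in single bovine early blastocysts with and without *SOX2*. The 8 genes are *FOLR3*, *FOLR2*, *SLC19A1* and *SLC46A1* for folate uptake, *MTHFD1* and *SHMT1* for the enzymes of the cytosol, and *MTHFD2* and *SHMT2* for those of the mitochondria. They were found by their symbols in a table of 20112 genes, which held all 8. *FOLR3* was selected on its fall in these same embryos, so its values are given as a description and without a test. The other 7 genes were added for their place in the same pathway, and 44 further genes of folate and linked metabolism were read beside them.

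The experiment compared 5 WT with 5 *SOX2* KO embryos, all of *Bos taurus*, fertilized in vitro and injected as zygotes. For WT, only mRNA of BE3, a cytosine base editor, was injected. For *SOX2* KO, sgRNAs that turn codons of *SOX2* into stop codons were added to the BE3 mRNA. All 10 were taken as early blastocysts, at day 7 after fertilization per the labels, while the methods of the study name a slightly later day. Each embryo was sequenced whole by Smart-seq2, which copies polyadenylated RNA and amplifies it by PCR without molecular identifiers. A guide-injected embryo can hold cells with different edits, and the WT embryos carry no control sgRNA, so the injection of guide RNA itself cannot be told apart from the loss of *SOX2*. The WT embryos are named nc1 to nc5 and the *SOX2* KO embryos ko1 to ko5, as in the table, and values are given in that order. A normalized read count is the number of reads on a gene divided by the size factor of the embryo. Reads per gene do not show edited bases. The study genotyped each sequenced blastocyst from part of its cDNA library. It also reports a strong loss of SOX2 protein signal in edited blastocysts, with mosaicism in few of them. *SOX2* itself lay at 56.5 to 93.4 normalized read counts in WT against 26.4 to 82.1 in *SOX2* KO embryos (log2 change -0.55, limma adjusted p = 0.167), and a stop codon need not change the number of reads.

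Folate enters cells through receptors that bind it tightly at the surface and are taken up by endocytosis, and through carriers that move reduced folate across the membrane. Inside, tetrahydrofolate carries single carbon units, taken mostly from serine by the SHMT enzymes and passed on by the MTHFD enzymes, in parallel sets in the cytosol and the mitochondria. These units are used to build purines and thymidylate and to remethylate homocysteine to methionine, which early embryos need for DNA synthesis and methylation.

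The reads behind the values numbered 2223670 to 5134855 per WT embryo and 2578284 to 4337342 per *SOX2* KO embryo (two-sided exact permutation test, p = 0.349), and 3 reads were taken as the floor of detection. *RN18S1*, the gene of 18S ribosomal RNA, took 26.4% to 37.0% of reads in WT against 32.5% to 45.0% in the other group (exact permutation p = 0.0635). A gene is called where its limma adjusted p is no more than 0.05 and it differs at least 2-fold. By this rule 8.93% of the 20056 tested genes were called higher in *SOX2* KO embryos and 1.16% lower. Both shares mix all levels of expression and are not matched to the level of any list below. The marker sums below are in normalized read counts, WT first. For the epiblast without *SOX2* they were 1858 to 2275 and 1017 to 1427, with 4 of 8 tested markers called lower and none higher. For the primitive endoderm the sums were 1451 to 1738 and 1145 to 1288, with 4 of 8 lower. For the trophectoderm they were 24417 to 35840 and 32994 to 46683, with 1 of 10 higher (*ELF3*). By the adjusted p alone 2 trophectoderm markers were higher and 1 lower. Single genes weigh heavily in these sums, with values up to 1481 for *POU5F1*, 1207 for *GATA6* and 25760 for *KRT8*. The listed markers *FGF4* and *SOX17* were not analysed here. Sums for cumulus and granulosa cells were 34.1 to 87.5 and 58.1 to 105, with 0 of 9 called by limma, DESeq2 or edgeR and 1 at an unadjusted p under 0.05. Blood markers summed to 5.44 to 28.9 and 14.8 to 54.6, with 1 of 4 higher (*PTPRC*), and sperm markers to 0 to 21.2 and 0 to 10.5, with 1 of 3 higher (*AKAP4*, at 0 in all WT embryos). The part of these shifts in the folate genes was not tested. In whole embryos, fewer cells of one type and less RNA per cell cannot be told apart.

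*FOLR3* stood at 70.2, 109.7, 46.7, 45.8 and 46.0 normalized read counts in the WT embryos (63.7 ± 27.8, SD, n = 5). In the *SOX2* KO embryos it stood at 3.34, 7.92, 2.33, 1.64 and 2.31 (3.51 ± 2.54, SD, n = 5). The groups did not overlap, and even the highest *SOX2* KO embryo, ko2, lay far below the lowest WT embryo. The WT counts rested on 92, 74, 47, 59 and 78 reads and the *SOX2* KO counts on 3, 6, 2, 2 and 2, so 4 of the 5 *SOX2* KO embryos were at or under the floor of 3 reads. Per summed size factor of each group, the ratio of the summed reads was 0.0556 in *SOX2* KO against WT (exact 95% interval 0.0308 to 0.0930, counting error only).

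On the scale of log2(normalized read count + 1), the difference in *FOLR3* was -3.90 (SE 0.41), rank 3 from the bottom among the tested genes. Leaving out each embryo in turn gave -4.18 to -3.68. A pseudocount of 5 gave -2.98 and quantile normalization -4.57. The median log2 change of all tested genes was 0.25, and -0.11 over the 4548 whose mean was 100 or more.

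**Figure D1:**
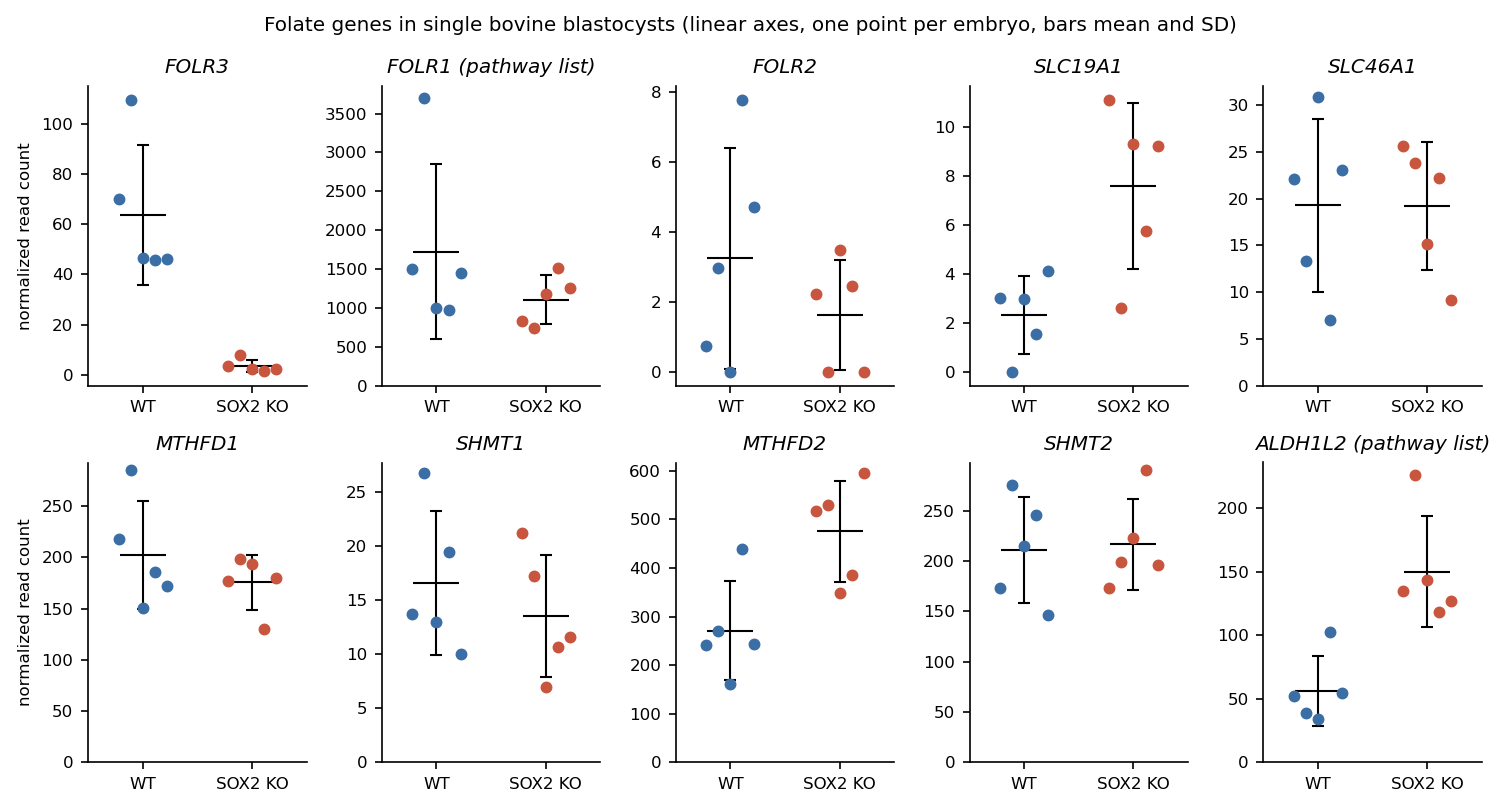
Normalized read counts (linear y axes, each with its own range) of the 8 folate genes and of *FOLR1* and *ALDH1L2* in WT (blue) and *SOX2* KO (red) embryos, 1 point per embryo, with the mean and SD of 5 embryos as black bars. *FOLR3* has means of 63.7 and 3.51 without overlap, *MTHFD2* overlaps only through the WT embryo at 439, and the groups overlap in *SHMT2* and *MTHFD1*.

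The other folate receptors did not share this pattern past the test. *FOLR1*, the folate receptor of many epithelia, had 1500, 3699, 1000, 981 and 1455 normalized read counts in WT and 838, 750, 1185, 1516 and 1255 in *SOX2* KO embryos. The groups overlapped, with 1 WT embryo, nc2, far above all others, and the log2 change of -0.50 (SE 0.28, 95% interval -1.08 to 0.09) did not pass (limma adjusted p = 0.224). *FOLR2*, the receptor known from macrophages and placenta, had 1, 2, 0, 10 and 8 reads in WT and 2, 0, 3, 3 and 0 in *SOX2* KO embryos. A difference in *FOLR2* was not detectable at this depth (log2 change -0.56, 95% interval -1.93 to 0.81, limma adjusted p = 0.579). *IZUMO1R*, a family member that binds the sperm protein IZUMO1 on the egg, ran from 0 to 2.98 in WT against 0 to 5.57 in *SOX2* KO embryos, all but ko1 at or under the floor (limma adjusted p = 0.984).

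Within an embryo, the share of *FOLR3* among the reads of *FOLR1*, *FOLR2* and *FOLR3* does not depend on how embryos are scaled. It was 4.47%, 2.88%, 4.46%, 4.43% and 3.06% in the WT embryos, with 95% Wilson intervals from 2.30% to 5.88% over the 5. In the *SOX2* KO embryos it was 0.396%, 1.05%, 0.195%, 0.108% and 0.183%, with intervals from 0.0296% to 2.26%. These intervals cover counting error only, not the spread between embryos. *FOLR3* having been chosen by its fall, this share is a description too. It was computed after the values had been seen.

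**Figure D2:**
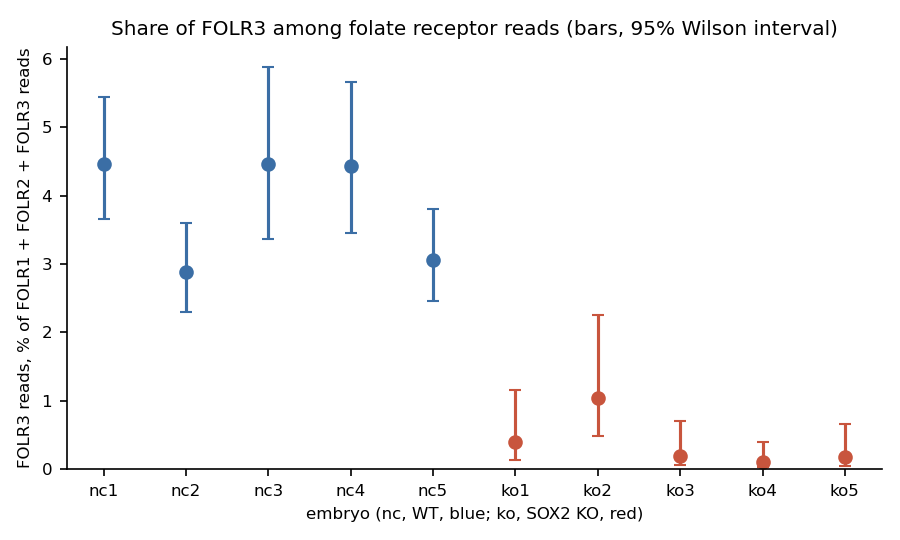
Percent of the reads of *FOLR1*, *FOLR2* and *FOLR3* that fell on *FOLR3* (y axis, linear from 0) in each WT (nc, blue) and *SOX2* KO (ko, red) embryo, with 95% Wilson intervals for counting error as bars. WT embryos sit between 2.88% and 4.47% and *SOX2* KO embryos between 0.108% and 1.05%.

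The 3 receptor genes are close copies of one another and lie as consecutive protein-coding genes on chromosome 15 of the RefSeq assembly ARS-UCD2.0, in the order *FOLR3*, *FOLR1*, *FOLR2*. The RefSeq table lists FBP and FR-alpha as other names of bovine *FOLR3*, so the symbol alone does not equate it with the gene called *FOLR3* in other species. How reads that fit several copies were counted is not given in the sources used here, so the split between the 3 genes is uncertain. Of the 10 nearest tested neighbours, 5 on each side of the receptor genes, 2 were called and both were higher in *SOX2* KO embryos. Of all tested genes, 8.93% were called higher and 1.16% lower. The 2 neighbours were *PDE2A* (log2 change 2.01, limma adjusted p = 0.0316, WT mean 2.98) and *STARD10* (1.27, limma adjusted p = 0.00226), and the other 8 ran from -0.79 to 0.72. The neighbours were examined after the values of *FOLR3* had been seen.

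The 5 genes whose log2 values were most like *FOLR3* over the 10 embryos, among 11333 others whose mean was 10 or more, were *FZD10*, *PRKCI*, *HLTF*, *GTF2A1* and *KPNB1*. Their Pearson correlations with *FOLR3* were 0.98, 0.98, 0.98, 0.97 and 0.96, and all 10 points share the difference between the groups. After the group means were removed, the correlations were 0.76, 0.74, 0.74, 0.79 and 0.70. The 5 genes were chosen on these same values, so these correlations too are a description and were not tested. In *SOX2* KO embryos they rest on 2 to 6 reads of *FOLR3*. All 5 were, as their choice by likeness implies, lower in *SOX2* KO embryos, from -0.56 for *GTF2A1* to -1.86 for *FZD10*, a Wnt receptor.

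Neither folate carrier passed the test. *SLC19A1*, the reduced folate carrier, had 3.05, 0, 2.98, 1.55 and 4.13 normalized read counts in WT and 11.1, 2.64, 9.30, 5.75 and 9.22 in *SOX2* KO embryos. Most *SOX2* KO embryos were above all WT embryos, and the groups overlapped only through ko2. The log2 change was 1.44 (SE 0.57, 95% interval 0.26 to 2.63, limma adjusted p = 0.0887), on 16 reads in all WT and 35 in all *SOX2* KO embryos. *SLC46A1*, the proton-coupled folate transporter, had 22.1, 13.3, 30.8, 6.99 and 23.02 in WT and 25.6, 23.8, 15.1, 22.2 and 9.22 in *SOX2* KO embryos, with wide overlap (log2 change 0.06, 95% interval -0.79 to 0.91, limma adjusted p = 0.934). Its sign turned with the scaling and with single embryos, so no direction is given.

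None of the 5 genes listed for further uptake and retention was called, against 8.93% of all tested genes called higher and 1.16% lower. DESeq2 and edgeR also called 0 of the 5, and 0 had an unadjusted p under 0.05. Besides *FOLR1* and *IZUMO1R* the 5 are *SLC25A32*, which carries folate into mitochondria, *FPGS*, which adds the glutamate tail that keeps folate inside the cell, and *GGH*, which removes it. Their log2 changes were -0.27, 0.07 and -0.23.

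Of the 7 genes other than *FOLR3*, limma called 0, against 8.93% of all tested genes called higher and 1.16% called lower. DESeq2 and edgeR also called 0 of the 7, and 2 had an unadjusted p under 0.05. By the adjusted p alone, without the 2-fold threshold, 1 of the 7 was higher, against 10.4% of all genes higher and 3.20% lower. That gene is *MTHFD2*, the mitochondrial enzyme that makes formyl donors from methylene-tetrahydrofolate and is known for its high level in dividing embryonic and tumour cells.

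*MTHFD2* had 241, 270, 161, 439 and 244 normalized read counts in WT (271 ± 102, SD, n = 5) and 518, 530, 349, 386 and 595 in *SOX2* KO embryos (475 ± 104, SD, n = 5). The groups overlapped through the single WT embryo nc4, which lay above ko3 and ko4. *MTHFD2* rose by 0.85 on the log2 scale (SE 0.21, 1.81-fold, limma adjusted p = 0.0147), below the fold threshold. DESeq2 and edgeR gave 0.81 and 0.72 (adjusted p = 0.0118 and 0.0335). Without ko5 the limma adjusted p was 0.0513, and without nc4 the change was 1.05 (limma adjusted p = 0.00295), past both thresholds. With the *RN18S1* share as a covariate the change was 0.89 and did not pass (limma adjusted p = 0.140). The share leaned higher in *SOX2* KO embryos, so here and below this fit cannot fully separate the share from the genotype. Over all genes it called 220 instead of 2024.

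The other 3 enzymes did not pass the test. *SHMT2*, which takes carbon from serine in mitochondria, had 173, 276, 215, 246 and 146 normalized read counts in WT and 174, 199, 223, 291 and 196 in *SOX2* KO embryos (log2 change 0.05, 95% interval -0.35 to 0.45, limma adjusted p = 0.882). *SHMT1*, its cytosolic counterpart, had 13.7, 26.7, 12.9, 19.4 and 10.03 in WT and 21.2, 17.2, 6.98, 10.7 and 11.5 in *SOX2* KO embryos (-0.29, 95% interval -1.12 to 0.54, limma adjusted p = 0.645). *MTHFD1*, the cytosolic enzyme with 3 activities in one protein, had 218, 285, 150, 186 and 172 in WT and 177, 198, 193, 130 and 180 in *SOX2* KO embryos (-0.18, 95% interval -0.57 to 0.20, limma adjusted p = 0.515). In each of these 3 genes the groups overlapped.

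Because a ratio of 2 genes in one embryo is little affected by scaling, the mitochondrial and cytosolic enzymes were also compared as log2 ratios of (normalized read count + 1). The ratio of *MTHFD2* to *MTHFD1* was 0.14, -0.08, 0.10, 1.24 and 0.50 in WT (0.38 ± 0.52, SD) and 1.54, 1.41, 0.85, 1.57 and 1.72 in *SOX2* KO embryos (1.42 ± 0.34, SD). Again only nc4 overlapped with the *SOX2* KO embryos. The ratio was higher in *SOX2* KO embryos by 1.04, or 2.05-fold (two-sided exact permutation test, p = 0.0159, adjusted over 2 ratios p = 0.0317, smallest possible p = 0.00794). It stayed higher, by 0.92 to 1.25, with each embryo left out in turn. The ratio of *SHMT2* to *SHMT1* was 3.64 ± 0.23 in WT and 3.97 ± 0.77 in *SOX2* KO embryos, a difference of 0.34 (exact permutation p = 0.373). Gene lengths were not available here, so ratios are compared between embryos and not between genes.

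**Figure D3:**
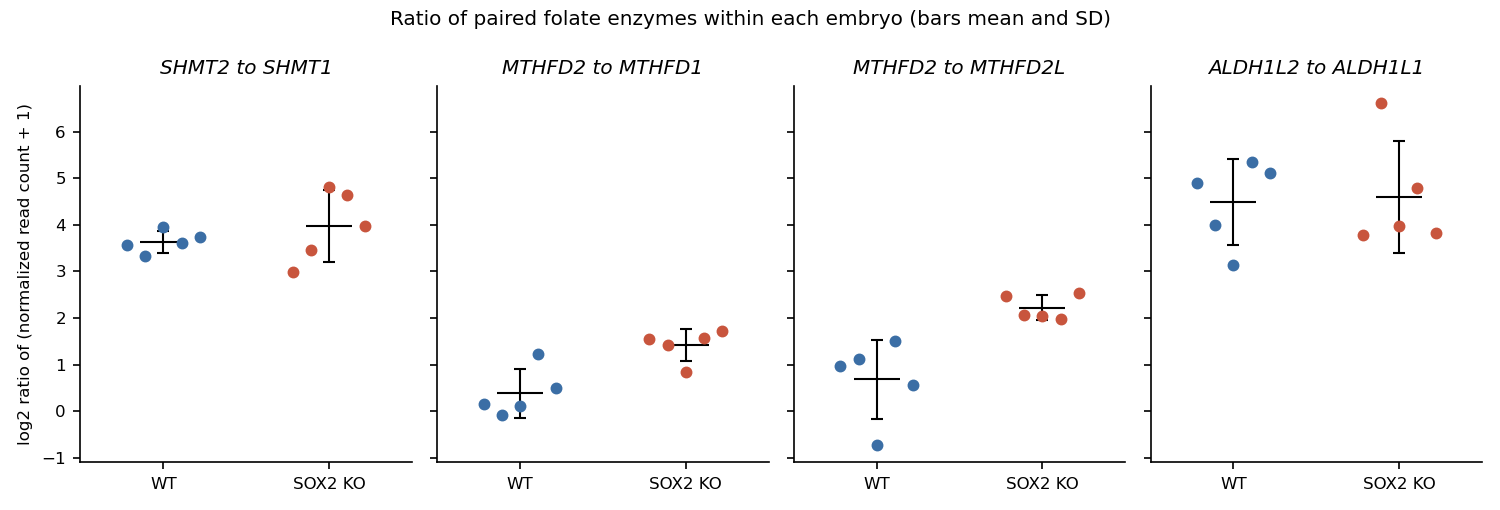
log2 ratios (y axis) of 4 pairs of folate enzymes within each WT (blue) and *SOX2* KO (red) embryo, 1 point per embryo, with mean and SD of 5 embryos as black bars. The ratio of *MTHFD2* to *MTHFD1* averages 0.38 in WT and 1.42 in *SOX2* KO embryos, and that of *SHMT2* to *SHMT1* 3.64 and 3.97. The other ratios were not tested. *MTHFD2* to *MTHFD2L* averages 0.68 and 2.22, and *ALDH1L2* to *ALDH1L1*, with few reads of *ALDH1L1*, 4.50 and 4.60.

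Over all folate lists 52 genes were named, of which 50 were in the table and 49 were tested. *DMGDH* and *BHMT2* were not analysed here, and *BHMT* had a mean below 1. Of the 49, 4 were called higher and 2 lower, against 8.93% and 1.16% of all tested genes, and 43 were not called. By the adjusted p alone 5 were higher and 5 lower, against 10.4% and 3.20%. In 8 of the 49 the groups did not overlap, against 9.17% of all tested genes. The median log2 change was -0.18 over the 49 and -0.20 over the 41 that are not among the 8 genes, beside 0.25 over all tested genes. The all-gene median depends on the level of expression, being -0.04 at a mean of 10 or more and -0.11 at 100 or more. The shares of calls depend on it too. Once genes under a mean of 10 were dropped, 502 of 11334 were called higher and 190 lower. In the folate lists 3 were then called higher and 2 lower, *FOLR3* included. The 8.93% and 1.16% therefore cannot show whether these lists hold fewer or more calls than other genes of like level. *FOLR3* is 1 of the 2 genes called lower, and it was chosen for that.

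Of the 5 tested genes of receptor-mediated vitamin uptake, 2 were called higher and none lower, against 8.93% and 1.16% of all tested genes. *LRP2* encodes megalin, the large endocytic receptor that takes up vitamin carrier proteins. It ran from 2092 to 3206 normalized read counts (median 2669) in WT, against 5155 to 7431 (median 5519) in *SOX2* KO embryos, without overlap, and it rose by 1.13 on the log2 scale (SE 0.18, limma adjusted p = 0.000624). *TCN2*, which encodes the blood carrier of vitamin B12, the cofactor of methionine synthase, stood at 7.63, 1.48, 2.98, 5.44 and 5.31 in WT and at 18.9, 19.8, 17.4, 18.9 and 17.3 in *SOX2* KO embryos. The *SOX2* KO values of *TCN2* lay close together and above all WT values, on 30 and 85 reads in all. *TCN2* rose by 1.93 (SE 0.44, limma adjusted p = 0.00863). It did not pass under quantile normalization (change 1.41, limma adjusted p = 0.0510) or with the *RN18S1* share as a covariate (change 1.93, limma adjusted p = 0.111).

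*CD320*, the receptor for transcobalamin, pointed the other way. It had 169, 142, 121, 150 and 133 normalized read counts in WT and 93.5, 107, 119, 83.8 and 109 in *SOX2* KO embryos, without overlap. Its log2 change of -0.48 (SE 0.17) missed the test in limma (adjusted p = 0.0658) but passed it in DESeq2 (adjusted p = 0.0480) and edgeR (adjusted p = 0.0392), below the fold threshold, and in limma without nc3 (adjusted p = 0.0464). *CUBN* and *AMN*, which form the cubam receptor with which megalin works, had log2 changes of 1.59 and 1.33 on few reads (limma adjusted p = 0.107 and 0.132). *CUBN* was called without nc3 (limma adjusted p = 0.0391).

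**Figure D4:**
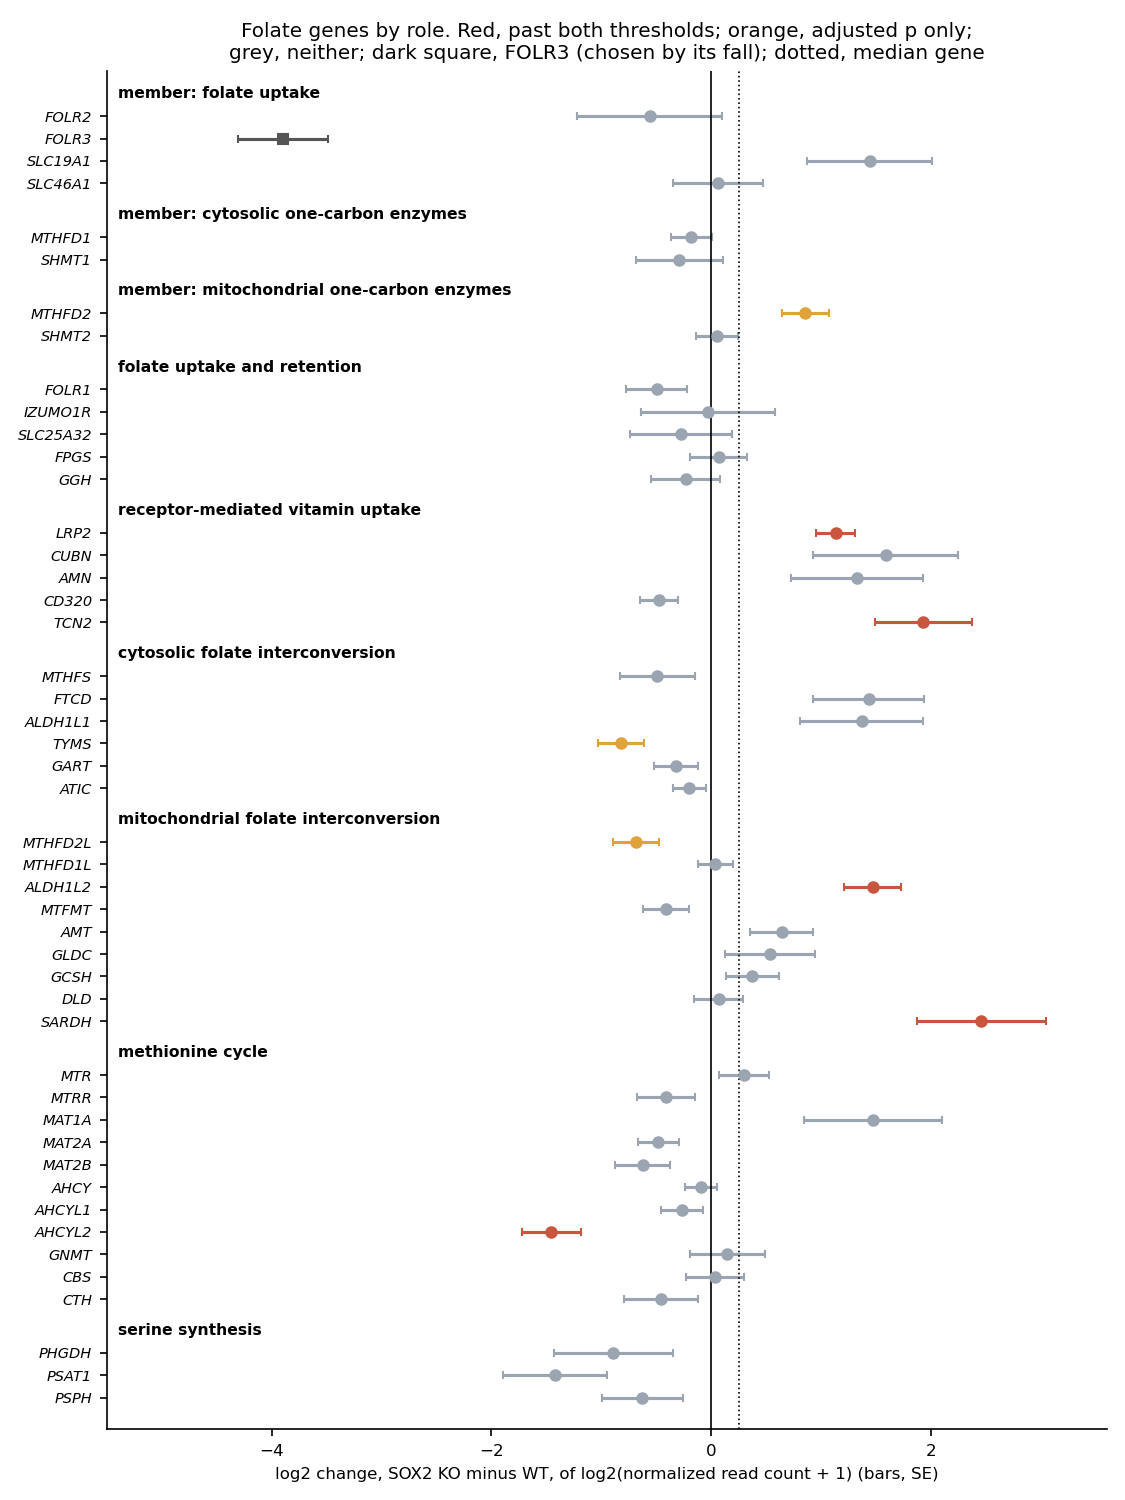
log2 change of (normalized read count + 1), *SOX2* KO minus WT (x axis), with SE bars, for 47 of the tested folate genes by role. Red marks genes past both thresholds, orange those past the adjusted p alone and grey the rest. The dark square is *FOLR3* at -3.90, which was chosen by its fall, and the dotted line is the median of all genes at 0.25.

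In the cytosol, none of the 8 further genes of folate interconversion was called, against 8.93% of all tested genes called higher and 1.16% lower. DESeq2 and edgeR also called 0 of the 8, and 4 had an unadjusted p under 0.05. *TYMS*, which makes thymidylate, was lower by the adjusted p alone. It had 296, 455, 201, 327 and 398 normalized read counts in WT and 180, 199, 149, 263 and 145 in *SOX2* KO embryos. *TYMS* fell by 0.82 (SE 0.21, limma adjusted p = 0.0162), though the limma adjusted p was 0.0538 without ko5. For *TYMS*, DESeq2 and edgeR gave -0.84 and -0.91 (adjusted p = 0.00649 and 0.0114). With the *RN18S1* share as a covariate its change was -0.30 and did not pass (limma adjusted p = 0.483). The groups overlapped through ko4.

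The purine synthesis enzymes *GART* and *ATIC*, which use formyl-tetrahydrofolate, had log2 changes of -0.32 and -0.20 (limma adjusted p = 0.277 and 0.359), and *MTHFS* of -0.49. *FTCD* and *ALDH1L1* had log2 changes of 1.43 and 1.37 on 2 and 8 reads in all WT embryos (limma adjusted p = 0.0614 and 0.0987). *FTCD* was called without ko4 (limma adjusted p = 0.0258) and *ALDH1L1* without ko2 (0.0442).

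Of the 9 further mitochondrial genes, 2 were called higher and none lower, against 8.93% and 1.16% of all tested genes. *ALDH1L2*, the mitochondrial formyl-tetrahydrofolate dehydrogenase, had 51.9, 38.6, 33.8, 103 and 54.3 normalized read counts in WT and 135, 226, 143, 118 and 127 in *SOX2* KO embryos. Every *SOX2* KO embryo was above every WT embryo, the closest being nc4 among WT. *ALDH1L2* rose by 1.47 (SE 0.26, 2.77-fold, limma adjusted p = 0.00152). *SARDH*, which oxidizes sarcosine and passes the carbon to folate, had 0, 0, 2, 0 and 0 reads in WT and 11, 2, 3, 4 and 13 in *SOX2* KO embryos. It was called higher (log2 change 2.46, SE 0.59, limma adjusted p = 0.0111), and the ratio of summed reads per summed size factor was 21.4 (exact 95% interval 5.48 to 184, counting error only). The mean of *SARDH* was below 10, and the share of all genes called higher at such low means was not computed. With the *RN18S1* share as a covariate the change of *SARDH* was 1.59 and did not pass (limma adjusted p = 0.286).

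*MTHFD2L*, a close relative of *MTHFD2* with the same reaction, went the other way. It had 124, 125, 268, 155 and 165 normalized read counts in WT and 92.4, 127, 83.7, 96.9 and 101.5 in *SOX2* KO embryos. *MTHFD2L* fell by 0.69 (SE 0.21, limma adjusted p = 0.0346) below the fold threshold. DESeq2 and edgeR gave -0.74 and -0.82 (adjusted p = 0.0197 and 0.0176). In limma *MTHFD2L* passed in 4 of the 10 fits that leave out 1 embryo, those without nc1, nc2, ko2 or ko4. Without nc3 its limma adjusted p was 0.0710. It did not pass with rescaling by the median log ratio (limma adjusted p = 0.0749) or quantile normalization (0.0644). With the *RN18S1* share as a covariate its change was -0.82 and did not pass either (limma adjusted p = 0.146). Within embryos, the log2 ratio of *MTHFD2* to *MTHFD2L* was 0.68 ± 0.86 in WT and 2.22 ± 0.26 in *SOX2* KO embryos (SD, n = 5), a ratio chosen after the values had been seen and so not tested. The glycine cleavage genes *AMT*, *GLDC*, *GCSH* and *DLD*, and *MTHFD1L* and *MTFMT*, did not pass (log2 changes 0.64, 0.53, 0.37, 0.07, 0.04 and -0.41).

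In the methionine cycle, 1 of 11 tested genes was called lower and none higher, against 1.16% and 8.93% of all tested genes. *AHCYL2*, a relative of the enzyme that splits S-adenosylhomocysteine but known for regulating ion transport and calcium signals instead, had 238, 282, 212, 273 and 117 normalized read counts in WT and 77.9, 40.9, 80.2, 80.5 and 137 in *SOX2* KO embryos. The groups overlapped through the lowest WT embryo and ko5. *AHCYL2* fell by 1.45 (SE 0.27, limma adjusted p = 0.0022). *AHCY* itself, *MTR*, *MTRR* and *CBS* had log2 changes of -0.09, 0.30, -0.41 and 0.03 without passing. *MAT2A* and *MAT2B*, which make S-adenosylmethionine, had changes of -0.48 and -0.62 (limma adjusted p = 0.0834 and 0.0957). *MAT1A* had a change of 1.47 on 3 reads in WT, and it was called without ko4 (limma adjusted p = 0.0227).

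None of the 3 genes of serine synthesis was called by limma, against 8.93% of all tested genes called higher and 1.16% lower. DESeq2 called 0 of the 3 and edgeR 1, and 1 had an unadjusted p under 0.05. *PSAT1*, the second enzyme of the pathway that makes serine from a glycolytic intermediate, had 116, 452, 67.6, 768 and 248 normalized read counts in WT and 92.4, 205, 81.4, 44.4 and 69.2 in *SOX2* KO embryos. The WT embryos spread over a wide range and overlapped with the *SOX2* KO embryos. Its log2 change was -1.42 (SE 0.48, limma adjusted p = 0.0509, edgeR adjusted p = 0.0153, DESeq2 adjusted p = 0.0600), and it passed in limma after rescaling to equal totals and without nc1, without nc3 or without ko2. *PHGDH* and *PSPH*, the first and last enzymes, had changes of -0.89 and -0.63 (limma adjusted p = 0.259 and 0.249), and -0.24 and -0.18 without ko4.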

How the data were processed

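RNA-seq values came from 5 WT and 5 *SOX2* KO single bovine embryos. Per the submitters' notes and the methods, paired-end 150 bp reads were trimmed (Trimmomatic), aligned to ARS-UCD1.2 (HISAT2) and counted per gene (featureCounts). The deposited table is a normalized signal that the authors made by dividing read counts by the DESeq2 size factor of each embryo. The annotation release, strand setting and handling of multimapped reads are not given in the sources used here. Of 201120 values, 201120 (100%) were whole multiples of a step per embryo (tolerance 0.01 reads), so reads were recovered. The lowest total per gene was 11 reads, and genes with fewer are not analysed here. No pair among 45 had identical reads. p-values judge the difference between the groups against the spread between these embryos. Whether embryos shared an oocyte pool, a fertilization run or a library batch is not given in the sources used here.

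limma 3.58.1 (trend) was fitted to log2(normalized read count + 1) for 20056 genes with a mean of at least 1. Calls needed an adjusted p (Benjamini-Hochberg) no higher than 0.05 and a difference of at least 2-fold, and 2024 genes passed (1792 higher, 232 lower). On recovered reads, DESeq2 1.42.0 called 2074 and edgeR 4.0.16 called 1985. Ratios used exact permutation (Python 3.11.15, scipy 1.17.1). Scripts were tested on simulated data. Alternatives covered pseudocounts 0.1 and 5, 3 rescalings, filters, an *RN18S1* covariate, no fold threshold and leaving out each embryo. Named genes are the 8 genes, the listed folate, marker and targeted genes, and the 5 most like *FOLR3*. Members and lists were chosen with earlier results of these data known. Coordinates and sequences are not printed, since the gene table describes ARS-UCD2.0. The results of 2 listed genes are not reported here.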

Additional observations from a re-analysis of the deposited data

Results flagged for a closer look

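In 9 of 98 groups of 5 embryos, over the 49 tested folate genes, 1 embryo lay apart from the other 4 by Dixon's criterion (gap over range above 0.71), where about 1 in 20, or 4.9, would if the values were normally distributed. In *SOX2* KO embryos these were ko2 for *FOLR3* (7.92 against 1.64 to 3.34) and for *ALDH1L2* (226 against 118 to 143), ko1 for *IZUMO1R* (5.57 against 0 to 1.15), ko5 for *LRP2* (7431 against 5155 to 5621), and ko4 for *AMT* (413 against 121 to 195) and *GCSH* (2224 against 715 to 797). In WT embryos they were nc2 for *FOLR1* (3699 against 981 to 1500), nc3 for *MTHFD2L* (268 against 124 to 165) and nc3 for *SARDH* (1.99 against 0 in the other 4). All values are normalized read counts. The counts of *FOLR3* in ko2, *IZUMO1R* in ko1 and *SARDH* in nc3 rest on 6, 5 and 2 reads. The criterion was applied to linear counts, some near 0, whose distribution was not checked, so 9 beside 4.9 cannot be read as an excess.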

How the results depend on the processing

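In the folate lists, which include linked metabolism, the 5 calls other than *FOLR3* were *LRP2*, *TCN2*, *ALDH1L2*, *SARDH* and *AHCYL2*. All 5 held in the 10 fits that leave out 1 embryo and in DESeq2 and edgeR. *LRP2*, *ALDH1L2* and *AHCYL2* also held with the *RN18S1* covariate. With no fold threshold 10 genes of these lists passed instead of 6, *FOLR3* included in both. Over all genes, 2024 calls became 1185 with a pseudocount of 5, 1076 under quantile normalization, 692 with a mean of at least 10, 220 with the covariate, and 947 to 3324 with 1 embryo left out. Under quantile normalization 58.5% of calls were higher (88.5% before), with the covariate 62.3% and with a mean of at least 10 72.5%. The sign turned for *FOLR2* with the covariate (0.29), for *SLC46A1* with equal totals (-0.053), quantile normalization (-0.33), DESeq2 (-0.012), edgeR (-0.090) and 1 embryo left out (-0.24 to 0.29), and for *SHMT2* with equal totals (-0.073), edgeR (-0.028) and 1 embryo left out (-0.072 to 0.16). The causes were not tested. Rescaling moved the median gene from 0.25 to 0.14 (equal totals), 0.34 (median log ratio) and -0.02 (quantile). Few reads limit *FOLR2*, *SLC19A1*, *SARDH* and *FOLR3* in *SOX2* KO embryos. No paired analysis was possible because columns ko1 to ko5 cannot be matched to the replicate numbers that the labels give.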

Other observations

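Across WT embryos *PHGDH*, *PSAT1* and *PSPH* were all highest in nc4 (253, 768 and 208 normalized read counts) and all lowest in nc3 (41.8, 67.6 and 75.6). Among *SOX2* KO embryos all 3 serine genes were lowest in ko4 (9.04, 44.4 and 25.5), the embryo in which *AMT* and *GCSH* of glycine cleavage were highest (413 and 2224). *GLDC* was highest in ko4 as well (141, against 139 in ko1). These orders were noticed after the values had been seen, and no test was run.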
